A study of Homo sapiens with 6 samples.

Results

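Inflammatory and immune response genes were examined in a human lung cancer cell line, NCI-H292, treated with mitoxantrone. The drug intercalates into DNA and poisons type II topoisomerases, which leaves strand breaks. The genes were those rows of the deposited table whose Gene Ontology biological process field holds inflammatory response, immune response or innate immune response as a whole entry. Of 1305 listed genes, 105 carried at least 1 of these entries. The rule set aside CXC chemokines, colony-stimulating factors, histones, APOBEC3 deaminases, solute carriers, clade B serpins and a list of single genes, among them IL6, IL1A, IL1B and the PD-1 ligands. This removed 30 of the 105 and left 75 genes, called members below. The entries overlap: 38 members carried innate immune response, 31 inflammatory response and 22 immune response.

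All libraries came from the same line, with no genetic change stated in the labels. The 3 control libraries came from cells given the solvent DMSO at a dilution of 1 in 1000, and the 3 treated libraries from cells given 50 nM mitoxantrone, each for 48 hours. The series title names drug-induced senescence and therapy directed at LUNX as the setting. Separate cultures are not stated for the 3 libraries of a group. The p-values therefore reflect the spread between these samples alone, and that spread may be technical. The model is a single cancer line without immune cells in the culture, as far as the labels say.

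Inflammation starts when cells sense microbes or damage through pattern recognition receptors, such as the Toll-like receptors, whose adaptors and kinases activate the transcription factor NF-kappaB and the MAP kinases. The cells then release cytokines and chemokines, which act on receptors of neighbouring and immune cells, and present antigens and stress ligands at their surface. Airway epithelial cells carry out many of these steps themselves, and senescent cells are known for secreting inflammatory proteins.

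Every member had been selected by the authors as changed on these same libraries. The members with the smallest changes in the authors' deposited table, by log2 fold change, were RPS6KA5 at -1.001 and MAPK11 at 1.012. A call below therefore partly repeats that selection, and no count of calls is evidence by itself. Genes outside the table were not analysed here. The library totals behind the FPKM values were 14762544 to 17817780 reads. The members' share of them was 0.147% to 0.162% in the controls and 0.303% to 0.333% in the treated libraries. The share of all listed genes also rose, from 3.97% to 4.04% in the controls to 6.08% to 6.2% in the treated libraries. Values are read counts divided by the authors' size factors, called normalized reads, or FPKM, fragments scaled for gene length and library size, where genes are compared with each other. Each mean is given ± SD over 3 libraries.

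With mitoxantrone, 58 members rose and 15 fell, and 2 missed the threshold, a Benjamini-Hochberg adjusted p of 0.05 by edgeR's quasi-likelihood test. Over all listed genes 56.7% passed as higher, 35.3% as lower and 92% in either direction, against 77.3% and 20% of the members as higher and lower. In 74 of the 75 members every library of 1 group lay above every library of the other, as in 98.6% of all listed genes. The median log2 fold change of the members was 1.51, beside 1.26 over all listed genes. The sizes of change were alike, with a median absolute log2 fold change of 1.64 in both sets. These are edgeR fits. In the authors' deposited values the median log2 fold changes were 1.32 and 1.1. Deposited changes were smaller for members with few reads such as EREG (2.64, fitted 3.70) and KIT (-1.36, fitted -2.07), so a ranking by size depends on the fit. Whether the members differ in direction from other listed genes was not tested.

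The count of rises depended on the scaling. TMM factors computed over the listed genes left 34 members higher (45.3% of the 75) and 16 lower (21.3%), beside 30.5% and 39.2% of all listed genes. DESeq2 size factors over the listed genes left 14 higher (18.7%), close to the 16.8% of all listed genes, and 16 lower (21.3%), beside 39.2%. Among calls alone, the share that was higher was 79.5% for members and 61.6% for all listed genes with the authors' factors. It was 68% and 43.7% with TMM factors, and 46.7% and 30% with DESeq2 size factors. Both of these sets of factors centre genes selected as changed, most of them higher, so by construction they shrink rises and enlarge falls. They shifted the median of all listed genes by -0.67 and -0.99 on the log2 scale. No member changed direction: 59 lay above and 16 below 0 under each of the 3 scalings. The 14 rises called under all 3 were those of TREM2, EREG, IL1R2, TLR4, IRAK2, AOX1, IL7R, S100A9, EMR2, MDM2, NLRP1, ADAM8, PROCR and TNFSF15. All 15 falls were called under all 3, which the shift favours, so this is no test of the falls. A rise that lost its call may likewise reflect the shift alone.

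**Figure D1:**
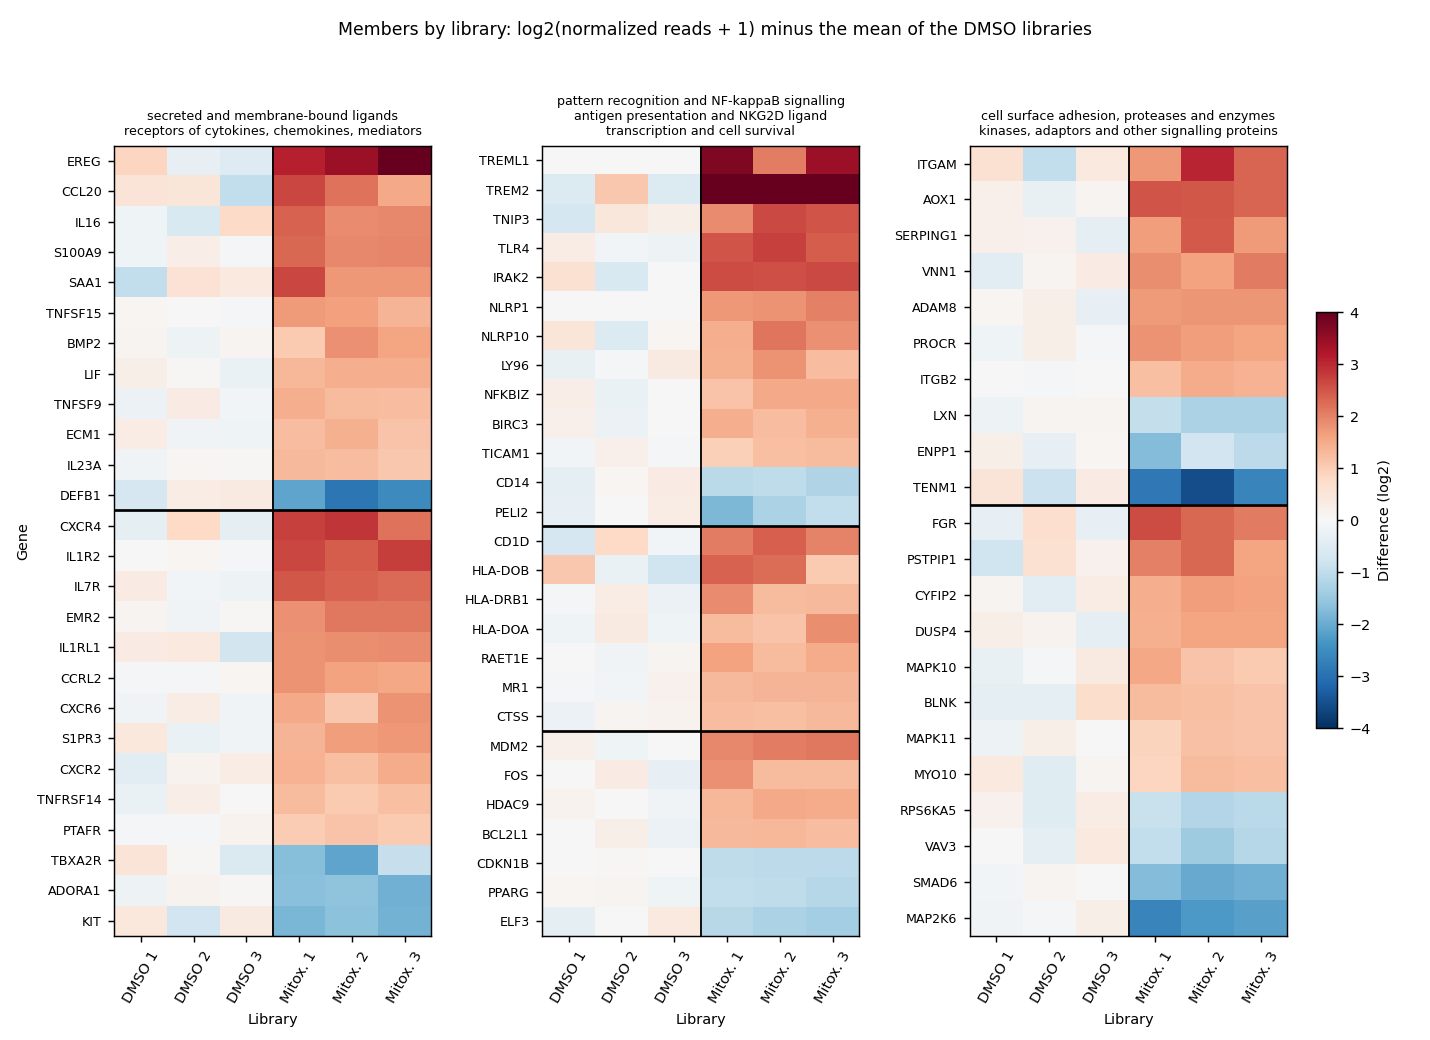
Colour gives log2(normalized reads + 1) of each member (rows) in each of the 6 libraries (columns) minus the mean of the 3 DMSO libraries, with members grouped by role in the order of the panel titles and sorted by fitted fold change. The mitoxantrone columns are red for 59 members and blue for 16, and HLA-DOB is the 1 member whose groups overlap.

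Ligands and other secreted proteins went up with 1 exception: 11 of 12 rose and DEFB1 fell. Counts by role, here and below, stand beside 56.7% higher and 35.3% lower over all listed genes. S100A9, a subunit of the neutrophil and epithelial alarm protein calprotectin, was the most abundant of them, at 27.3 ± 3.32 FPKM with DMSO and 109 ± 14.3 FPKM with mitoxantrone. Its libraries read 216, 291.6 and 230.5 normalized reads with DMSO and 1202, 919 and 951 with mitoxantrone (log2 fold change 2.06, standard error 0.16, edgeR adjusted p = 3.1e-07). The lowest mitoxantrone library stood far above the highest DMSO library. SAA1, an acute phase protein that attracts leukocytes, read 9.45, 29.9 and 25.7 normalized reads with DMSO and 130.04, 66.7 and 67.6 with mitoxantrone (log2 fold change 2.03, standard error 0.36, edgeR adjusted p = 0.00104). Mitoxantrone replicate 1 was the high treated library, and the lowest treated library was above every control. SAA2, the near-identical copy next to SAA1, was also listed and rose from 7.10 ± 4.30 to 49.2 ± 21.7 normalized reads, so how the reads of SAA1 and SAA2 were divided is uncertain.

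EREG, an EGF receptor ligand, read 6.01, 2.06 and 1.71 normalized reads with DMSO and 32.8, 40.6 and 60.1 with mitoxantrone (log2 fold change 3.70, standard error 0.46, edgeR adjusted p = 3e-05), with few reads in every control. Without DMSO replicate 1, its highest control, the log2 fold change was 4.48. LIF, an interleukin 6 family cytokine, rose from 463 ± 82.5 to 1215 ± 54.2 normalized reads and was the most abundant cytokine among the members (7.51 ± 1.41 FPKM with DMSO and 18.8 ± 1.23 FPKM with mitoxantrone). TNFSF15, the T cell costimulator TL1A, rose from 162 ± 8.39 to 483 ± 55.1 normalized reads. TNFSF9, the ligand of the costimulatory receptor 4-1BB, rose from 32.0 ± 7.21 to 80.2 ± 7.04 normalized reads. The other ligands that rose were IL23A, the p19 subunit of interleukin 23, which rose 2.33-fold, the secreted matrix protein ECM1, which rose 2.41-fold, and the growth factor BMP2, which rose 2.92-fold. Both chemoattractants were weakly expressed. CCL20, the ligand of the receptor CCR6, had 10 reads summed over the controls and 44 over the treated libraries, a ratio of 5.23 with a 95% exact counting interval of 2.59 to 11.7. IL16, which attracts CD4+ T cells, had 8 and 33 reads, a ratio of 4.91 (2.22 to 12.3), and a fitted log2 fold change of 2.25, or 2.98 without DMSO replicate 3. In the edgeR test the CCL20 call ended without DMSO replicate 3 (0.0987) or mitoxantrone replicate 1 (0.107), and the IL16 call without DMSO replicate 1, DMSO replicate 2, mitoxantrone replicate 1, mitoxantrone replicate 2 or mitoxantrone replicate 3 (adjusted p 0.0578 to 0.131). Values in brackets after a left-out library, here and below, are adjusted p-values without it.

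DEFB1, a constitutive epithelial defensin that kills microbes, moved the other way. It read 57.6, 114 and 118 normalized reads with DMSO and 20.4, 11.5 and 15.03 with mitoxantrone (log2 fold change -2.63, standard error 0.33, edgeR adjusted p = 3.4e-05). The lowest control, DMSO replicate 1, was still above every treated library. Per length it was at 13.0 ± 4.38 FPKM with DMSO and 2.00 ± 0.54 FPKM with mitoxantrone, so S100A9 and DEFB1, both antimicrobial, changed in opposite directions.

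**Figure D2:**
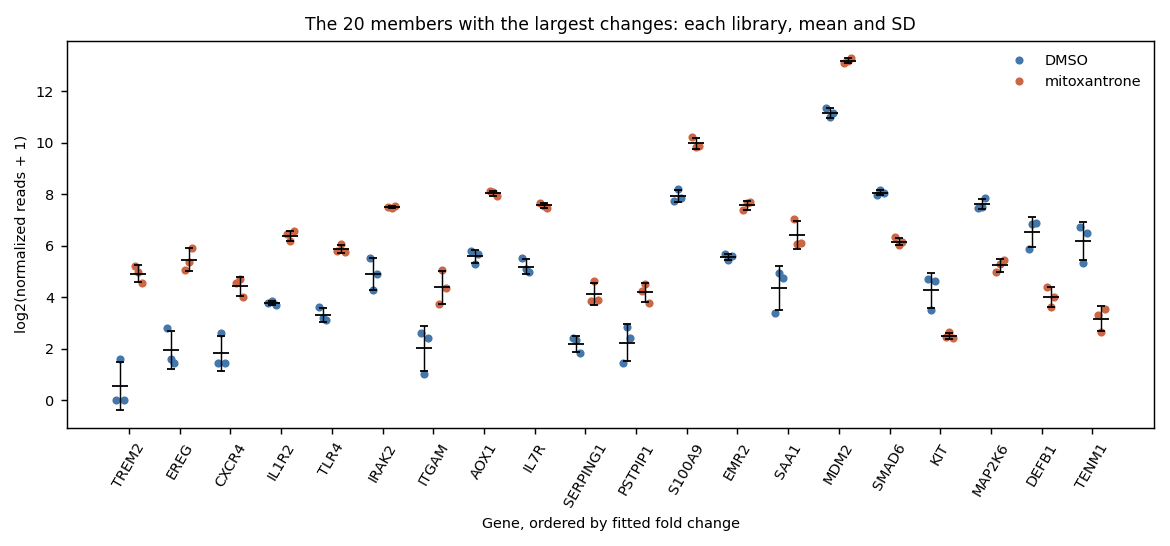
Points give log2(normalized reads + 1) in each of 3 DMSO and 3 mitoxantrone libraries for the 20 members with the largest fitted changes among those that passed the test, did not overlap and had a mean of at least 10 normalized reads; black marks are means with SD. Each gene's groups are apart, 15 genes with mitoxantrone above and 5 (SMAD6, KIT, MAP2K6, DEFB1 and TENM1) with mitoxantrone below.

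Of 14 receptors of cytokines, chemokines and small mediators, 11 rose, ADORA1 and KIT fell, and TBXA2R did not pass the test. IL1R2, a decoy that binds interleukin 1 without signalling, read 12.9, 13.4 and 11.99 normalized reads with DMSO and 85.9, 71.9 and 93.4 with mitoxantrone (log2 fold change 2.71, standard error 0.26, edgeR adjusted p = 2.8e-06). IL7R, the alpha chain of the interleukin 7 receptor, read 44.7, 33.0 and 30.8 normalized reads with DMSO and 205, 189 and 175 with mitoxantrone (log2 fold change 2.38, standard error 0.20, edgeR adjusted p = 6.4e-07). The controls of both genes lay close together and every treated library was far above them. IL1RL1, the interleukin 33 receptor ST2, rose from 71.7 ± 27.3 to 246 ± 6.88 normalized reads. IL1R2 and IL1RL1 lie near each other on chromosome 2, with 2 protein-coding genes between them in RefSeq.

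The chemokine receptors were weakly expressed, with group means of at most 1.41 FPKM. CXCR4, the receptor of CXCL12, read 1.72, 5.15 and 1.71 normalized reads with DMSO and 22.6, 25.0 and 15.03 with mitoxantrone (log2 fold change 2.87, standard error 0.52, edgeR adjusted p = 0.00122). Without DMSO replicate 2, its highest control, the log2 fold change was 3.51. CXCR2, which binds CXCL8 and related neutrophil chemokines, rose from 28.9 ± 7.46 to 74.3 ± 8.06 normalized reads. CCRL2, an atypical receptor that binds chemerin, rose from 21.2 ± 0.96 to 68.6 ± 6.43 normalized reads. CXCR6, the receptor of CXCL16, had 16 and 43 reads over the groups, a ratio of 3.20 (95% exact counting interval 1.76 to 6.08). The CXCR6 call (edgeR adjusted p = 0.0414) ended without any of 5 libraries: DMSO replicate 1, DMSO replicate 3, mitoxantrone replicate 1, mitoxantrone replicate 2 or mitoxantrone replicate 3 (adjusted p 0.0551 to 0.238). With library totals as the scale its adjusted p was 0.0554.

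EMR2, now named ADGRE2, an adhesion receptor known from myeloid cells, read 49.8, 42.2 and 48.0 normalized reads with DMSO and 166, 204 and 205 with mitoxantrone (log2 fold change 2.03, standard error 0.18, edgeR adjusted p = 1.3e-06). TNFRSF14, the receptor HVEM that T cell regulators bind, rose 2.25-fold. The receptors of lipid mediators lay on both sides of 0. PTAFR, the receptor of platelet-activating factor, rose from 278 ± 21.7 to 581 ± 23.7 normalized reads. S1PR3, a receptor of sphingosine 1-phosphate, rose from 15.6 ± 4.43 to 48.1 ± 6.46 normalized reads. TBXA2R, the thromboxane receptor, read 24.9, 17.5 and 11.1 normalized reads with DMSO and 4.52, 3.13 and 8.59 with mitoxantrone (log2 fold change -1.70, standard error 0.50, edgeR adjusted p = 0.0571). Its groups did not overlap, and it passed without DMSO replicate 3 (0.0332) or mitoxantrone replicate 3 (0.0441). ADORA1, an adenosine receptor, fell from 56.1 ± 7.11 to 16.2 ± 1.99 normalized reads. KIT, the stem cell factor receptor, read 24.9, 10.3 and 24.0 normalized reads with DMSO and 4.52, 5.21 and 4.29 with mitoxantrone (log2 fold change -2.07, standard error 0.49, edgeR adjusted p = 0.0123), and DMSO replicate 2 was the low control. The KIT call ended without DMSO replicate 1 (0.0806), DMSO replicate 3 (0.0675) or mitoxantrone replicate 3 (0.0558).

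Pattern recognition and NF-kappaB genes held both directions in the route of TLR4, the receptor of bacterial lipopolysaccharide. TLR4 read 11.2, 8.24 and 7.71 normalized reads with DMSO and 55.4, 65.6 and 52.6 with mitoxantrone (log2 fold change 2.66, standard error 0.30, edgeR adjusted p = 1.4e-05). LY96, the MD-2 protein that binds lipopolysaccharide on TLR4, read 3.44, 4.12 and 6 normalized reads with DMSO and 13.6, 17.7 and 11.8 with mitoxantrone (log2 fold change 1.64, standard error 0.47, edgeR adjusted p = 0.0505). It missed the threshold narrowly, and its groups did not overlap, as in 98.6% of all listed genes. With limma on log2(FPKM + 1) LY96 was called (adjusted p = 0.00608), but not with the DESeq2 Wald test or the replicate block. CD14, which hands lipopolysaccharide to TLR4 and MD-2, read 43.0, 58.7 and 70.2 normalized reads with DMSO and 26.0, 27.1 and 23.6 with mitoxantrone (log2 fold change -1.16, standard error 0.27, edgeR adjusted p = 0.011). Every treated library was below every control, and the call ended without DMSO replicate 3 (0.0827) or mitoxantrone replicate 3 (0.0622). Per length, the mean levels were 0.11 ± 0.02 FPKM with DMSO and 0.68 ± 0.08 FPKM with mitoxantrone for TLR4, 0.48 ± 0.15 FPKM with DMSO and 1.45 ± 0.30 FPKM with mitoxantrone for LY96 and 1.95 ± 0.47 FPKM with DMSO and 0.83 ± 0.04 FPKM with mitoxantrone for CD14. CD14 thus had the highest mean level of the 3 with DMSO and LY96 with mitoxantrone.

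Downstream of the receptors, TICAM1, the adaptor TRIF of TLR3 and TLR4, rose from 278 ± 35.01 to 616 ± 68.9 normalized reads. IRAK2, a kinase that carries the signal of Toll-like and interleukin 1 receptors, read 44.7, 18.6 and 29.1 normalized reads with DMSO and 183, 176 and 185 with mitoxantrone (log2 fold change 2.53, standard error 0.24, edgeR adjusted p = 2.4e-06). The treated libraries were nearly equal while the controls were uneven. PELI2, a ubiquitin ligase that acts on IRAK proteins, fell from 26.7 ± 5.97 to 10.03 ± 3.07 normalized reads, with a call that ended without DMSO replicate 3 (0.177), mitoxantrone replicate 1 (0.151) or mitoxantrone replicate 2 (0.102). In the deposited annotation 16 members carried the entry toll-like receptor signaling pathway, and no listed gene outside the members did. Members were chosen from the same annotation field, so this describes the annotation and is no result about expression. Of the MAP kinases among these, MAPK11 (p38 beta) rose 2.11-fold and MAPK10 (JNK3) 2.38-fold. MAPK10 was weakly expressed, at 0.29 FPKM with DMSO and 0.66 FPKM with mitoxantrone. Its adjusted p was 0.00152 by edgeR and 0.0552 by limma on log2(FPKM + 0.1). MAP2K6, the kinase that activates p38, fell and read 178, 183 and 229 normalized reads with DMSO and 30.5, 38.5 and 42.9 with mitoxantrone (log2 fold change -2.39, standard error 0.20, edgeR adjusted p = 7.1e-07). RPS6KA5 (MSK1), a kinase downstream of p38, was 2.15-fold lower (edgeR adjusted p = 0.00666, 0.0561 by limma on log2(FPKM + 1)).

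**Figure D3:**
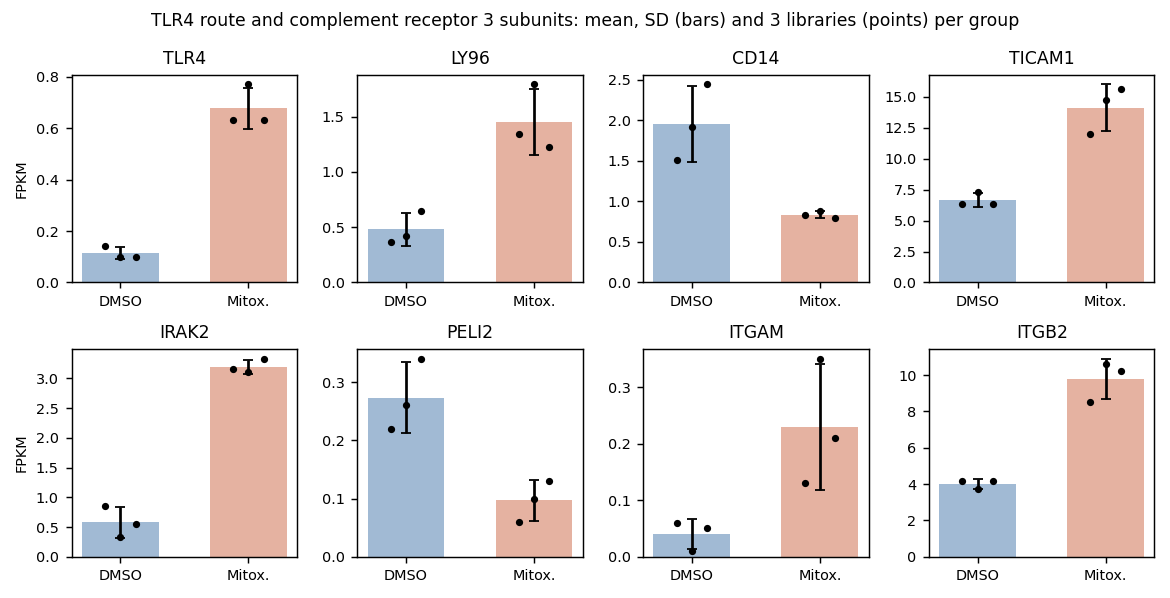
Bars give mean FPKM with SD and points the 3 libraries of each group for TLR4, LY96, CD14, TICAM1, IRAK2, PELI2 and the integrin subunits ITGAM and ITGB2, each panel with its own axis from 0. CD14 and PELI2 are lower with mitoxantrone and the other 6 are higher, of which LY96 did not pass the test.

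TREM2, a lipid-sensing receptor known from macrophages, had 2 reads in all controls together and 82 in all treated libraries, a ratio of 48.8 with a 95% exact counting interval of 13.1 to 409. The libraries read 0, 2.06 and 0 normalized reads with DMSO and 36.2, 30.2 and 22.5 with mitoxantrone (edgeR adjusted p = 3.7e-05), so nearly all of its reads came from treated cells. Both control reads were in DMSO replicate 2, and without it TREM2 was at least 23.0-fold higher against a floor of 3 reads for the remaining controls. The neighbouring gene TREML1, which encodes a platelet receptor, had 0 reads with DMSO and 23 with mitoxantrone, at least 9.12-fold higher when the DMSO group is set to its floor of 3 reads. Its treated libraries were uneven, at 12.4, 3.13 and 9.66 normalized reads (edgeR adjusted p = 0.00693). No other protein-coding gene lies between TREM2 and TREML1 on chromosome 6 in RefSeq. Counting intervals and floors here and below cover counting error only.

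NLRP1, an inflammasome sensor, rose from 123 ± 1.94 to 451 ± 48.9 normalized reads. NLRP10, a related protein without the leucine-rich repeats, rose from 35.02 ± 12.3 to 123 ± 29.1 normalized reads. The 3 NF-kappaB regulators among the members rose. BIRC3, the ubiquitin ligase cIAP2, went from 229.9 ± 34.1 to 592 ± 51.9 normalized reads. NFKBIZ, the nuclear cofactor IkappaB zeta, went from 82.4 ± 15.5 to 217 ± 31.1 normalized reads. TNIP3, which binds the NF-kappaB inhibitor A20, went from 2.17 ± 1.17 to 14.7 ± 3.97 normalized reads. BIRC3 and NFKBIZ are known targets of NF-kappaB.

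Promoters were read for 62 of the 75 members, as the 250 bases before the first RefSeq start of each gene (GRCh38.p14). Of the 1305 listed genes, 819 had a promoter to read. The NF-kappaB consensus was searched on both strands, each gene counted once, overlap with other motifs allowed. It was found in 11 of 62 member promoters (17.7%), 12.8% of those of listed genes and 9.6% of 27305 promoters in the RefSeq table. The AP-1 site TGANTCA was found in 12.9%, 9.3% and 6.6%, the interferon element core GAAANNGAAA in 3.2%, 2.6% and 3.1%, and the STAT palindrome TTCNNNGAA in 3.2%, 4.8% and 6.8%. A match is a run of letters and not a binding site. The windows below show the NF-kappaB matches, in capitals, of 6 members of the cytokine and NF-kappaB groups that rose, and of ELF3 and PELI2, which fell, so matches stood before genes of both directions.
CCL20: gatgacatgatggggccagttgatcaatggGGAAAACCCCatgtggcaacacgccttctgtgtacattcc
TNIP3: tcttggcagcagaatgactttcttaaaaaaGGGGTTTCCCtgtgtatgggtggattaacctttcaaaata
NFKBIZ: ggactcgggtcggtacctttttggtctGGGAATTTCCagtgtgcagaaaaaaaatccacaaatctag
IL23A: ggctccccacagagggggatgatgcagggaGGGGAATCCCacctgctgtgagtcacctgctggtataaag
BIRC3: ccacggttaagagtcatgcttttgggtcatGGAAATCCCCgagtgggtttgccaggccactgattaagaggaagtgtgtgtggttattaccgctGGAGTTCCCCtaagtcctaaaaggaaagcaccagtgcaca
TICAM1: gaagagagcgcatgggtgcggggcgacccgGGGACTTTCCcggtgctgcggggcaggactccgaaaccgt
ELF3: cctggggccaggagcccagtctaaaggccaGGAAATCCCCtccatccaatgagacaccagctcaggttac
PELI2: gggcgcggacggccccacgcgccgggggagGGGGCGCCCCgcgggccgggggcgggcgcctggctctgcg
The windows run 5′ to 3′ in the direction of each gene, with RefSeq sequence of GRCh38.p14. They are chr2:227813733-227813802 on the plus strand for CCL20, chr4:121227506-121227575 on the minus strand for TNIP3 and chr3:101827740-101827806 on the plus strand for NFKBIZ. Those of IL23A and BIRC3 are chr12:56338759-56338828 on the plus strand and chr11:102317255-102317388 on the plus strand. Those of TICAM1 and ELF3 are chr19:4831793-4831862 on the minus strand and chr1:202010469-202010538 on the plus strand. That of PELI2 is chr14:56118189-56118258 on the plus strand. BIRC3 held 2 matches and the other 7 genes 1 each. Of the members with a match, MAPK11, MYO10 and TNFRSF14, which rose, are not shown. The IL23A window also holds an AP-1 match, from base -77 to -71 before the start.

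Antigen presentation and killer cell ligand genes all rose, 7 of 7, from levels that differed widely, beside 56.7% of all listed genes called higher. None of the 7 was among the 14 rises called under all 3 scalings, of which those over the listed genes shrink rises by construction. MR1, which presents vitamin B metabolites to mucosal T cells, rose from 646 ± 73.9 to 1635 ± 38.3 normalized reads. CTSS, the protease that frees class II molecules of their invariant chain, rose from 74.8 ± 10.5 to 177 ± 4.81 normalized reads. RAET1E, which NKG2D on killer cells binds, rose from 60.8 ± 5.75 to 169.9 ± 20.6 normalized reads. CD1D, which presents lipids to natural killer T cells, had 7 and 34 reads over the groups, a ratio of 5.78 (95% exact counting interval 2.52 to 15.4). Its fitted log2 fold change was 2.45, or 3.13 without DMSO replicate 2. The class II genes had few reads. HLA-DRB1, a chain of the peptide-presenting HLA-DR, rose from 7.38 ± 1.70 to 22.5 ± 5.99 normalized reads. HLA-DOA, a chain of the peptide-loading modulator HLA-DO, rose from 8.01 ± 1.99 to 23.4 ± 6.73 normalized reads. HLA-DOB, the other HLA-DO chain, read 12.03, 4.12 and 2.57 normalized reads with DMSO and 30.5, 28.1 and 11.8 with mitoxantrone (log2 fold change 1.87, standard error 0.53, edgeR adjusted p = 0.0432), and mitoxantrone replicate 3 lay below DMSO replicate 1. Without DMSO replicate 1 the log2 fold change was 2.79.

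These low-count calls were fragile. HLA-DOB lost its call without DMSO replicate 2, DMSO replicate 3, mitoxantrone replicate 1 or mitoxantrone replicate 2 (adjusted p 0.056 to 0.253), and HLA-DRB1 without DMSO replicate 1 (0.0894), DMSO replicate 3 (0.0951) or mitoxantrone replicate 1 (0.144). HLA-DOA lost it without DMSO replicate 1 (0.116), DMSO replicate 3 (0.104) or mitoxantrone replicate 3 (0.178), and CD1D without DMSO replicate 1 (0.0914), DMSO replicate 3 (0.0793) or mitoxantrone replicate 2 (0.0915). HLA-DRB5, a near copy of HLA-DRB1, was also listed, with 2 reads in the controls and 17 in the treated libraries, so how the reads of HLA-DRB1 and HLA-DRB5 were divided is uncertain. MR1, CTSS and RAET1E, in contrast, kept their calls without any single library. They lost them with DESeq2 size factors over the listed genes, which by construction shrink every rise.

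Cell surface proteins, proteases and enzymes rose for 7 of 10 members and fell for TENM1, LXN and ENPP1. ADAM8, a metalloprotease that sheds surface proteins, was abundant, and read 1798, 2035 and 1377 normalized reads with DMSO and 5609.7, 5889 and 5845 with mitoxantrone (log2 fold change 1.74, standard error 0.16, edgeR adjusted p = 1.3e-06). PROCR, the protein C receptor, read 269, 354 and 285 normalized reads with DMSO and 1037, 950.3 and 894 with mitoxantrone (log2 fold change 1.67, standard error 0.14, edgeR adjusted p = 9.2e-07). For each the groups were well apart. ITGB2, the beta 2 integrin chain of leukocytes, rose from 423 ± 11.4 to 1085 ± 106 normalized reads. ITGAM, its partner in complement receptor 3, read 5.16, 1.03 and 4.28 normalized reads with DMSO and 12.4, 32.3 and 19.3 with mitoxantrone (log2 fold change 2.53, standard error 0.54, edgeR adjusted p = 0.00557). The chains differed in level per length, ITGB2 at 4.01 ± 0.26 FPKM with DMSO and 9.80 ± 1.10 FPKM with mitoxantrone and ITGAM at 0.04 ± 0.03 FPKM with DMSO and 0.23 ± 0.11 FPKM with mitoxantrone. Mitoxantrone replicate 2 was the highest library of ITGAM, and without it the adjusted p was 0.0608.

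AOX1, aldehyde oxidase, read 54.1, 38.1 and 50.5 normalized reads with DMSO and 276, 271 and 242 with mitoxantrone (log2 fold change 2.45, standard error 0.18, edgeR adjusted p = 1.7e-07). VNN1, a membrane pantetheinase, rose from 14.6 ± 3.91 to 54.5 ± 8.74 normalized reads. SERPING1, the inhibitor of complement C1, read 4.30, 4.12 and 2.57 normalized reads with DMSO and 13.6, 24.0 and 13.9 with mitoxantrone (log2 fold change 2.21, standard error 0.49, edgeR adjusted p = 0.008), and lost its call without DMSO replicate 3 (0.0521) or mitoxantrone replicate 2 (0.0896). TENM1, a teneurin that links cells at their surface, had the largest fall of all members. It read 104, 39.1 and 90.0 normalized reads with DMSO and 9.05, 5.21 and 10.7 with mitoxantrone (log2 fold change -3.22, standard error 0.41, edgeR adjusted p = 3.7e-05), and DMSO replicate 2 was well below the other controls yet above every treated library. LXN, the carboxypeptidase inhibitor latexin, fell from 505 ± 59.9 to 227 ± 29.9 normalized reads. ENPP1, which hydrolyses extracellular nucleotides, fell from 60.1 ± 11.5 to 26.4 ± 8.81 normalized reads, a call that ended without DMSO replicate 1, DMSO replicate 3, mitoxantrone replicate 1 or mitoxantrone replicate 3 (adjusted p 0.0541 to 0.1).

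Of 12 kinases, adaptors and other signalling proteins, 8 rose and 4 fell. DUSP4, a phosphatase that switches off MAP kinases, read 1719, 1629 and 1143 normalized reads with DMSO and 3993, 4372 and 4436 with mitoxantrone (log2 fold change 1.51, standard error 0.16, edgeR adjusted p = 7.1e-06). MYO10, a myosin of filopodia, rose from 2347 ± 684 to 4921 ± 720.1 normalized reads. CYFIP2, a regulator of actin branching, rose from 682 ± 164 to 1995 ± 157 normalized reads. PSTPIP1, a cytoskeletal adaptor of leukocytes, read 1.72, 6.18 and 4.28 normalized reads with DMSO and 18.1, 21.9 and 12.9 with mitoxantrone (log2 fold change 2.12, standard error 0.50, edgeR adjusted p = 0.0127). FGR, a SRC family kinase of myeloid cells, had 1 read in the controls and 15 in the treated libraries, a ratio of 17.8 (95% exact counting interval 2.74 to 751). Without DMSO replicate 2, which held that read, it was at least 4.2-fold higher against the same floor of 3 reads. BLNK, a B cell linker protein, rose from 56.0 ± 25.7 to 123 ± 5.50 normalized reads. The PSTPIP1 call ended without DMSO replicate 1 (0.0855) or mitoxantrone replicate 2 (0.0896), that of BLNK without DMSO replicate 1 (0.0692), and that of FGR without DMSO replicate 1, DMSO replicate 3, mitoxantrone replicate 1, mitoxantrone replicate 2 or mitoxantrone replicate 3 (adjusted p 0.0692 to 0.176).

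SMAD6, which inhibits BMP signalling, fell while the ligand BMP2 rose. SMAD6 read 248, 286 and 265 normalized reads with DMSO and 79.2, 64.6 and 69.8 with mitoxantrone (log2 fold change -1.90, standard error 0.16, edgeR adjusted p = 8.4e-07), a clear step between tight groups. VAV3 fell from 394 ± 105 to 171 ± 26.6 normalized reads.

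The 7 members that act in transcription and cell survival had the highest median level of the role groups, 19.1 FPKM over all libraries. The receptors had a median of 0.88 FPKM and all listed genes 1.35 FPKM. Single genes of the group ranged from HDAC9 at 0.69 FPKM to BCL2L1 at 140 FPKM. BCL2L1, which encodes the survival protein BCL-XL, was the highest member, at 84.5 ± 10.7 FPKM with DMSO and 195 ± 3.77 FPKM with mitoxantrone, and read 4377, 5043 and 3676 normalized reads with DMSO and 10643, 10797 and 10245 with mitoxantrone (log2 fold change 1.27, standard error 0.15, edgeR adjusted p = 2e-05). MDM2, the ubiquitin ligase of p53, ranked below S100A9 and ADAM8 in mean FPKM and read 2616, 2036 and 2260.1 normalized reads with DMSO and 8737, 9397 and 9965 with mitoxantrone (log2 fold change 2.02, standard error 0.15, edgeR adjusted p = 1.8e-07). FOS, a subunit of AP-1, rose from 78.0 ± 17.5 to 216 ± 52.8 normalized reads. HDAC9, a class II histone deacetylase, rose from 99.96 ± 9.15 to 274 ± 18.9 normalized reads. ELF3, an epithelial ETS factor induced in inflammation, fell from 3561 ± 928 to 1469 ± 121 normalized reads. PPARG, a nuclear receptor that restrains inflammatory genes, fell from 309 ± 33.2 to 149 ± 8.06 normalized reads. CDKN1B, the cell cycle inhibitor p27, fell from 1139 ± 26.0 to 557 ± 11.5 normalized reads, with a spread between libraries far below the difference.

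Several members carry signalling entries beside the immune one. Of the 24 members whose only qualifying entry was innate immune response, EREG, MDM2, MAPK10, CDKN1B and VAV3 also carried Fc-epsilon receptor signaling pathway. Members also shared where their proteins sit: 38 of 75 (50.7%) carried the entry plasma membrane, against 17.5% of all listed genes, and 14 (18.7%) extracellular space, against 7.7%. Both are descriptions of the annotation.

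**Figure D4:**
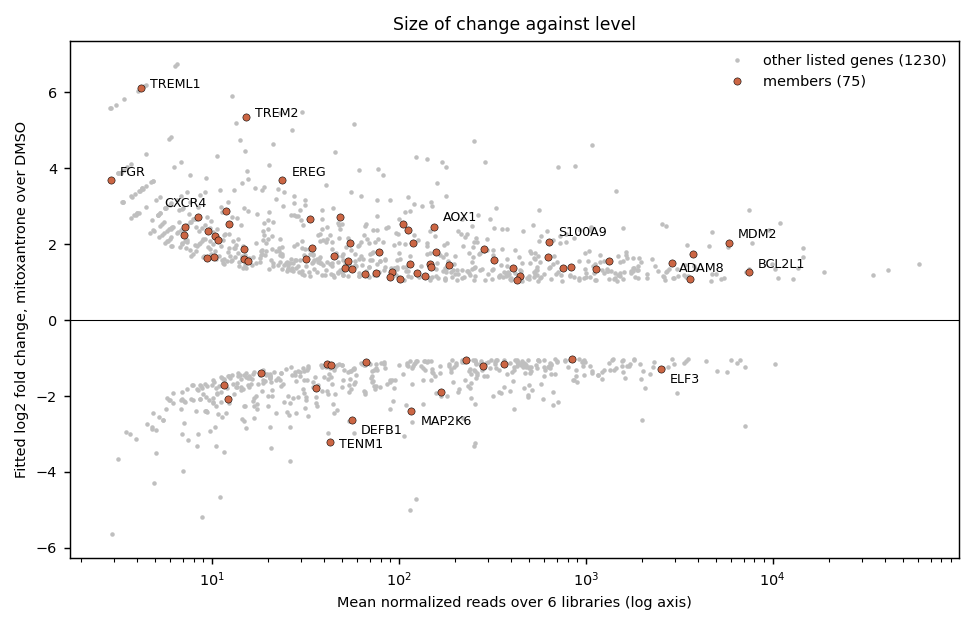
Each point is a listed gene, with mean normalized reads over the 6 libraries on a log axis and the fitted log2 fold change of mitoxantrone over DMSO on the other, members in colour and the 1230 other listed genes in grey. Members lie from -3.22 (TENM1) to 6.10 (TREML1, which has no reads with DMSO, a fitted value that depends on the prior count), and no listed gene lies near 0, since the authors' table holds no smaller changes.

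Mean levels were under 1 FPKM in both groups for 23 of them and at least 1 FPKM in both for 30, of which 9 had at least 10 FPKM in both. A further 19 were under 1 FPKM with DMSO and at least 1 with mitoxantrone, and 3 the reverse. In all, 68 of the 75 had a mean of at least 10 normalized reads.

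Other genes of the same pathways came from 11 lists of immune genes, which left out the genes that the rule sets aside. Beyond the members, 17 of their genes were listed, of which 14 rose and 3 fell, beside 56.7% higher and 35.3% lower over all listed genes. The counts of single lists below stand beside the same shares. Among cytokines outside the members IL24 rose from 77.9 ± 35.5 to 253 ± 21.7 normalized reads. EBI3, a subunit shared by interleukins 27 and 35, rose from 1.15 ± 1.31 to 29.1 ± 9.30 normalized reads. In the receptor list, with 10 of 52 genes listed, 9 were higher and 1, IL22RA1, lower. IL6R, the interleukin 6 receptor, rose from 41.6 ± 4.2 to 128 ± 8.73 normalized reads, and the decoy receptor IL13RA2 from 2.92 ± 1.69 to 16.6 ± 4.53 normalized reads. In the NF-kappaB list, with 5 of 42 genes listed, the subunit RELB rose from 189 ± 44.5 to 389.8 ± 30.2 normalized reads and the transcription factor CEBPD fell from 652 ± 136 to 277 ± 91.6 normalized reads. In the complement and coagulation list, with 3 of 39 listed, THBD, which encodes thrombomodulin, rose from 139.7 ± 26.0 to 353 ± 14.7 normalized reads. ALOX5, the enzyme that starts leukotriene synthesis, rose from 257 ± 46.8 to 637 ± 24.0 normalized reads.

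In the list of interferon and JAK-STAT genes, 2 of 58 were listed, STAT4 and SOCS1, and both rose, SOCS1, an inhibitor of cytokine signalling, from 4.06 ± 1.88 to 19.1 ± 1.19 normalized reads. All 8 listed genes of the 45 in the antigen presentation list rose, 7 members and ULBP2, another NKG2D ligand. The pattern recognition list had 8 of 54 genes listed, all members, of which 5 rose, CD14 and DEFB1 fell and LY96 did not pass. The S100 and alarmin list had 7 of 28 listed, 6 higher and 1 lower, among them PI3, the protease inhibitor elafin, which rose from 6.87 ± 3.43 to 46.5 ± 2.33 normalized reads. The TNF superfamily list had 3 of 30 listed, all members and all higher. CCL20 was the 1 listed gene of 24 CC chemokines and other chemoattractants, a list that left out the CXC chemokines.

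Markers of cell types were counted among the listed genes. Of 12 lung epithelial markers KRT8 and KRT18 were listed, both higher. KRT8 rose from 31927 ± 5353 to 89362 ± 9462 normalized reads. None of 10 T and NK cell markers, 6 B cell markers or 4 pan-leukocyte markers was listed. Of 12 myeloid markers the members CD14, ITGAM and S100A9 were listed, CD14 lower and the other 2 higher. Of 10 fibroblast and endothelial markers COL1A1 and CDH5 were listed, both lower. The table holds changed genes only, so an unlisted marker may still be expressed, and the part of other cell types in the results was not tested. In bulk libraries, fewer cells that express a gene and less RNA per cell cannot be told apart.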

How the data were processed

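RNA sequencing of 6 libraries, 3 with DMSO and 3 with mitoxantrone, was analysed from 1 deposited table of 1305 genes. Per the labels' protocols, reads were paired, and either a poly(A) module or an rRNA removal kit was used. Cufflinks 2.2.1, HTSeq 0.6.1, HISAT2 2.0.1, cutadapt 1.9.1 and, with no version, DESeq2 appear in the submitters' processing notes, which state neither role nor order. Genome build, annotation and strand setting were not given in the sources used here, so a gene's reads cannot be separated from those of an antisense or overlapping gene. Per the file headers, the table holds raw read counts and FPKM for each library. The authors also deposited a mean normalized count (a signal value), a Wald score, its p-value and adjusted p-value, and the log2 fold change and standard error behind them.

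Size factors were solved from deposited counts and means (largest relative error 5.0e-10), and library totals from FPKM. Columns of per-library values left unmapped numbered 0. The authors' p-values gave about 18310 tests (18301 to 18318). Read counts of all listed genes were tested in R 4.3.3 with edgeR 4.0.16 (quasi-likelihood test, treatment alone, no filter; limma 3.58.1), with Benjamini-Hochberg adjustment for 18310 tests and a threshold of 0.05. Ranks were taken among listed genes, which enlarges adjusted p-values. Dispersions from genes selected as changed may be too low. Counting intervals (95%, exact, scipy 1.17.1) and the floor of 3 reads cover counting error only. No replicates were duplicates: chi-square per gene was 2.91 to 25.4. DMSO replicate 2 stood apart from DMSO replicates 1 (25.4) and 3 (18.96), beside 10.5 between those. Among treated libraries it was 2.91 to 14.6. Alternatives were DESeq2 1.42.0, other scalings, limma on log2(FPKM + 0.1 or 1), a mean of 10 normalized reads, a replicate block and leaving out each library.

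The members, lists and roles were chosen with earlier results of these data known. All libraries' values are given for members past the threshold without overlap and with a mean of at least 10 normalized reads (the 20 largest changes and the 6 highest mean FPKM), and for members that miss the threshold or overlap. Library values given for CD14 and TREML1 were added after they had been seen. Of listed genes outside the members, at most the 2 largest changes of each list are named, besides the near copy HLA-DRB5 and list members given by name only. The promoters shown were chosen after their matches were known.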

Additional observations from a re-analysis of the deposited data

How the results depend on the processing

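The count of members called higher was 58 with the authors' size factors, 34 with TMM factors and 14 with DESeq2 size factors over the listed genes. Both sets of factors centre the listed genes, most of which were higher, so by construction they shrink rises and enlarge falls. Under the other alternatives it ranged from 50 to 59, and the count called lower from 12 to 16 under all alternatives. Leaving out 1 library gave 50 to 56 higher and 12 to 15 lower. No member reversed its direction under any alternative run. Leaving out 1 library ended the call of 16 members in at least 1 case, each named with its p in the report, and made TBXA2R pass. The DESeq2 Wald test ended 5 calls, those of IL16, HLA-DOA, CXCR6, FGR and PELI2, limma ended 6 with a pseudocount of 0.1 and 7 with 1, and a minimum of 10 normalized reads 1, that of HLA-DOB (adjusted p = 0.065), among the members it left in. With the replicate block 56 members were higher and 15 lower, with CXCR6 (adjusted p = 0.0837) and FGR (0.061) short of the threshold. Same-numbered libraries did not deviate together over the listed genes (correlations of -0.13, -0.08 and 0.07). With 3 libraries per group and selected genes alone, this cannot show whether they were prepared as pairs. Adjusting over the listed genes alone called all 59 and 16, which the selection of the table favours. Depth limits the values of TREM2, TREML1, FGR, TNIP3, CD1D, IL16, CXCR4, CCL20, EREG, ITGAM, SERPING1, PSTPIP1, LY96, CXCR6 and the class II genes, which rest on few reads with DMSO.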
